A study of Rattus norvegicus with 16 samples.

Results

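Genes whose products carry nuclear-encoded proteins into mitochondria, and those that inspect and degrade proteins once inside, were examined in liver from rats with and without sepsis. The module held every gene with a symbol of Timm or Tomm followed by a digit, together with 17 genes named one by one: Pam16, Dnajc19, Grpel1, Grpel2, Hspa9, Pmpca, Pmpcb, Lonp1, Clpp, Clpx, Afg3l2, Spg7, Yme1l1, Oma1, Samm50, Chchd4 and Gfer. This rule found 35 of the 17055 genes counted, of which 13 were Timm symbols, 7 were Tomm symbols and 15 came from the named genes. Clpp and Dnajc19 were not analysed here, and Timmdc1 was left out by the rule. The rule itself uses symbols only.

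The 16 RNA-seq libraries formed 4 groups of 4, each library being 1 pool made from the liver of 3 rats. All animals were male Sprague-Dawley rats, 10 weeks old, that were ventilated and underwent celiotomy. Anesthesia was kept up for 8 h after it, and liver was taken directly after death. In the Isoflurane-Sepsis group (libraries 1 to 4) the cecum was ligated and punctured (CLP), which releases gut bacteria into the abdomen, and in the Isoflurane-Control group (libraries 5 to 8) it was only lifted out and returned. In both of these groups isoflurane served for induction and for maintenance, which began at 1.5% inspired. The Propofol-Sepsis (libraries 9 to 12) and Propofol-Control (libraries 13 to 16) groups had the same operations under a propofol infusion after induction with ketamine-xylazine, so the induction drug goes with the maintenance drug in every comparison between anesthetics. Since each library is a pool, the p-values below rest on how pools vary, not on how individual animals vary.

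Most mitochondrial proteins are made in the cytosol and enter through the TOM complex of the outer membrane. From there, proteins with an N-terminal presequence pass the TIM23 complex and are pulled into the matrix by the motor chaperone mortalin (Hspa9), whose cycle is driven by a GrpE nucleotide exchange factor. Carrier proteins are escorted by small TIM chaperones to the TIM22 complex, small cysteine-rich proteins are trapped by a disulfide relay in the intermembrane space, and barrel proteins are built into the outer membrane by SAM. Matrix and inner membrane proteases then remove presequences and degrade damaged or surplus proteins. Hepatocytes are rich in mitochondria, whose enzymes for urea synthesis, fat oxidation and heme synthesis all arrive by these routes.

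The libraries held 14199422 to 49937173 reads on genes, and the members took 0.137% to 0.190% of them. Albumin (Alb), the defining hepatocyte product, took 5.61% to 9.03%. Expression is given below as CPM (read counts divided by the library's total on genes and scaled up by a constant), on 1 normalization scale across all libraries, and it is compared between groups within a gene, not between genes, because CPM is not divided by transcript length. Of the 35 members, 32 had enough reads to be tested in each comparison. The inner membrane protease gene Yme1l1 and the TIM23 channel gene Timm17b were listed at 0 reads in all 16 libraries, and Timm8a2 had 4 reads in all, 1 in each of 4 libraries. A count of 0 allows up to 3 reads, which was 0.0601 to 0.211 CPM depending on the library, and this limit covers counting error only. The sources used here do not say how reads matching several places were counted, so a listed 0 is not read as absence of the transcript.

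Sequence upstream of 3 members is shown because they carry the main patterns below: Tomm20, higher in sepsis under both anesthetics, Samm50, the most clearly lower member under isoflurane, and Grpel1, the close relative of the member that moved most upward. Each line is the 200 bases before the annotated gene start, written 5′ to 3′ on the gene's strand, from RefSeq on build GRCr8. Capitals mark matches to any of 5 motifs searched on both strands: GABPA (CCGGAAG), NRF1 (CGCATGCG), YY1 (AAGATGGCG), CARE (TGATGNAAN) and the E-box (CACGTG). The Tomm20 window is chr19:71832421-71832620 (minus strand), the Samm50 window is chr7:117197260-117197459 (plus strand) and the Grpel1 window is chr14:78522869-78523068 (minus strand).
Tomm20: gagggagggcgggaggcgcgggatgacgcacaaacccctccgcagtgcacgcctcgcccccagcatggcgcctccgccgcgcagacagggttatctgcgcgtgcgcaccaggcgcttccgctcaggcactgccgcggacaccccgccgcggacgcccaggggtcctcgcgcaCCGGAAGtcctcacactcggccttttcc
Samm50: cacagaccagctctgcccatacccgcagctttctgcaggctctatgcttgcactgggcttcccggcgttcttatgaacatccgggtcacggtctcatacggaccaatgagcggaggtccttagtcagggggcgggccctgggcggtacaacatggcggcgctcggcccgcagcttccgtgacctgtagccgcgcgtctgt
Grpel1: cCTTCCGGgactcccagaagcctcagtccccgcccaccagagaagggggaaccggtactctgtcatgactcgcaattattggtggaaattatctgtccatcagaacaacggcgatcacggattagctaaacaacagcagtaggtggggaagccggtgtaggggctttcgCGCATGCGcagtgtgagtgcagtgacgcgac
Tomm20 had the GABPA letters 28 bases before the start. Grpel1 had them at 199 bases, on the other strand, together with the NRF1 letters at 31 bases. None of the 5 motifs was found in the Samm50 window, which says only that these letters are not in it.

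All 35 members matched a RefSeq gene and 32 had an upstream sequence. These are not the same as the 32 tested members: they include the untested Yme1l1, Timm17b and Timm8a2 and leave out Clpx, Lonp1 and Tomm34. GABPA letters occurred in 13 of the 32 with an upstream sequence, or 40.6%. This was against 7.15% of all 27457 upstream sequences and 14.5% of the 7764 belonging to genes tested under isoflurane. Yme1l1 and Timm8a2 are among these 13 members, so the comparison with tested genes is not like for like. NRF1 letters were in 3 members (9.38%, against 1.51% of all and 3.07% of tested genes) and CARE letters also in 3 (9.38%, against 2.59% and 1.25%). The E-box was in 2 (6.25%, against 4.88% and 6.96%) and the YY1 letters in 1 (3.12%, against 0.597% and 1.12%). Both members that rose in sepsis, Grpel2 and Tomm20, had the GABPA letters, as did 3 of the 10 members that fell under either anesthetic and had an upstream sequence. A match is a stretch of letters, and binding at these places was not measured.

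A minority of the import and quality control genes passed in sepsis, with more called lower than higher. Under isoflurane, 10 of 32 members passed the test (edgeR quasi-likelihood test, Benjamini-Hochberg adjusted p below 0.05 over all genes tested), 2 higher and 8 lower. That is 31.25% of members, against 50.0% of the 10361 genes tested in this comparison (25.7% higher and 24.4% lower). Under propofol, 6 of 32 members passed, 2 higher and 4 lower, or 18.75% against 42.1% of 10348 genes (20.4% higher and 21.7% lower). In both anesthetics the share of members called was therefore below that of genes in general. Under isoflurane the lower calls were near their share over all genes, and the shortfall was in the higher calls. Under propofol calls in both directions were below their shares over all genes. The nucleotide exchange factor gene Grpel2 and the presequence receptor gene Tomm20 rose under both anesthetics, and the protease gene Oma1 fell under both.

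The changes were small in size. The median log2 fold change of the 32 members was −0.11 under isoflurane, with 19 members below 0, against 0.0061 for all genes tested, and −0.074 under propofol, with 20 below 0, against −0.0016 for all genes. Regardless of sign, the median member moved by 0.159 on the log2 scale under isoflurane and by 0.113 under propofol, while the median gene moved by 0.356 and 0.272. Such a median includes measurement noise, and the members had a smaller median SE than all genes. It was 0.0938 against 0.132 under isoflurane and 0.0877 against 0.112 under propofol. How much of the gap this makes up was not tested. With library totals in place of trimmed-mean normalization the calls were 1 higher and 11 lower under isoflurane and 0 higher and 8 lower under propofol. The counts also fell when some single libraries were left out. Under isoflurane they were 5, 6 and 5 without Isoflurane-Control library 6, 7 or 8, where the median member stood at −0.10, −0.13 and −0.076. Under propofol they were 2 without Propofol-Sepsis library 11 or 12 and 3 without Propofol-Control library 14, 15 or 16. Leaving out a library also takes away residual degrees of freedom, and the cause of these falls was not tested. Liver was measured whole, so fewer cells of a type and less RNA per cell cannot be told apart.

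**Figure D1:**
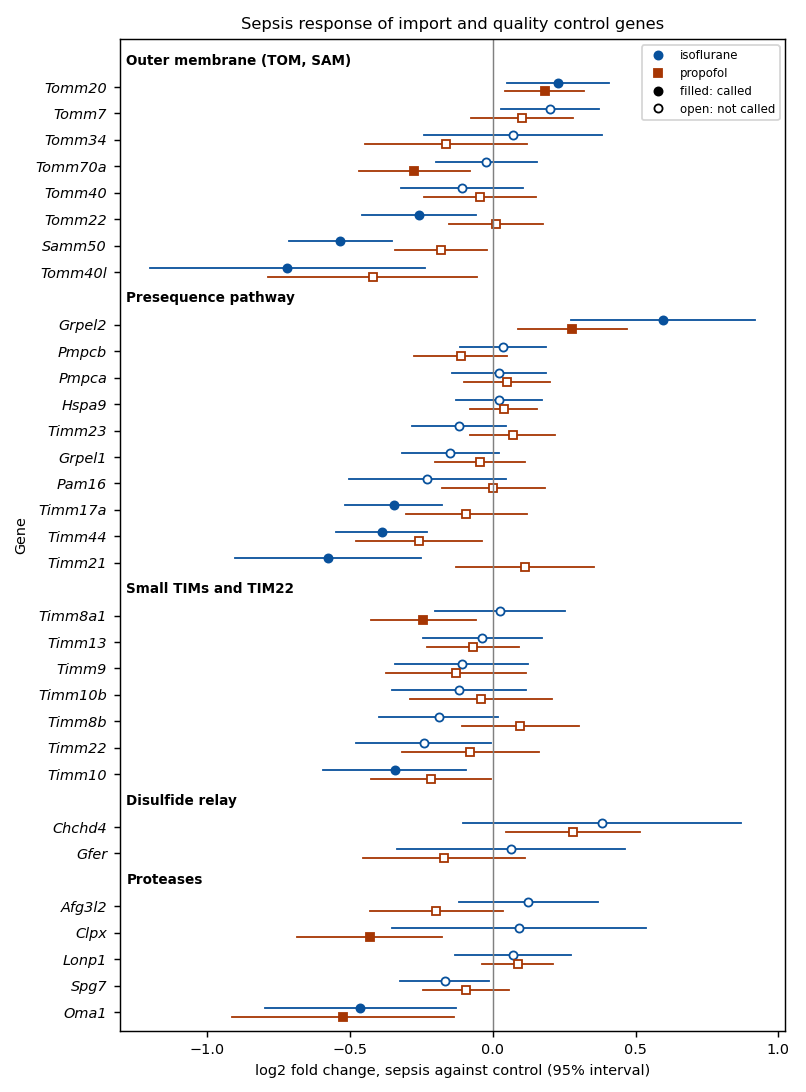
Log2 fold change of each tested member, sepsis minus control (x axis), for isoflurane (circles) and propofol (squares), with 95% intervals from 4 libraries against 4; members are grouped by role on the y axis and filled symbols passed the test. Grpel2 lies farthest to the right under isoflurane, at 0.60, and Tomm40l farthest to the left, at −0.72.

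In the outer membrane group, 4 of 8 members passed under isoflurane, 1 higher and 3 lower, and 2 of 8 under propofol, 1 higher and 1 lower. These are 50% and 25% of the group, against 50.0% and 42.1% of all genes tested. Samm50, the barrel-forming core of the SAM complex, was at 42.6, 47.0, 42.7 and 37.0 CPM in Isoflurane-Sepsis libraries 1 to 4 and at 61.2, 65.4, 62.3 and 59.0 CPM in Isoflurane-Control libraries 5 to 8. Every septic library lay below every control library. Samm50 fell by 0.53 on the log2 scale (SE 0.0801, adjusted p = 0.000882) and passed under all 16 alternatives run for it (adjusted p from 4.35e-08 to 0.00426). The propofol values were 43.8, 37.2, 45.3 and 46.2 CPM in sepsis and 47.3, 51.8, 49.7 and 47.0 CPM in controls. These groups also did not overlap, but the gap was narrow and the log2 fold change of −0.18 (SE 0.0722, adjusted p = 0.0686) did not pass. It passed there only with library totals as the scaling, at an adjusted p of 0.0223.

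Tomm20, the receptor that first recognizes presequences, was at 87.4, 105, 94.5 and 86.9 CPM in Isoflurane-Sepsis and at 83.8, 79.96, 75.6 and 83.5 CPM in Isoflurane-Control libraries. In the propofol groups it was at 88.0, 88.5, 91.1 and 101 CPM in sepsis and at 79.5, 84.7, 82.9 and 78.8 CPM in controls. Septic libraries were higher in both anesthetics with no overlap, and the control means of 80.7 CPM under isoflurane and 81.5 CPM under propofol lay within 1 SD of each other. The log2 fold change was 0.23 under isoflurane (SE 0.0785, adjusted p = 0.0372) and 0.18 under propofol (SE 0.0621, adjusted p = 0.0391). Both calls were close to the threshold: 8 of 16 alternatives kept each. The isoflurane call was lost when library 2, 3, 5, 6, 7 or 8 was left out (adjusted p from 0.0648 to 0.107), with library totals (0.130) and without a filter on low counts (0.0910). The propofol call was lost when library 11, 12, 13, 15 or 16 was left out (adjusted p from 0.0639 to 0.101), with library totals (0.115), without the filter (0.0862) and after thinning (0.0502).

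Tomm22, the central receptor of the TOM complex, was at 48.8, 49.1, 41.3 and 37.5 CPM in Isoflurane-Sepsis and at 55.1, 51.2, 53.4 and 53.9 CPM in Isoflurane-Control libraries, without overlap. It fell by 0.26 on the log2 scale (SE 0.0877, adjusted p = 0.0351). That call was lost when any 1 of libraries 3 to 8 was left out, at adjusted p from 0.0508 to 0.0879. The propofol values were 53.9, 43.9, 50.7 and 55.2 CPM in sepsis and 50.1, 50.5, 48.2 and 53.5 CPM in controls, so the groups overlapped fully, with a log2 fold change of 0.012 (95% interval −0.15 to 0.18).

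Tomm40l, a lowly expressed relative of the channel gene Tomm40, was at 1.83, 1.23, 1.603 and 1.89 CPM in Isoflurane-Sepsis and at 1.88, 3.20, 2.75 and 3.09 CPM in Isoflurane-Control libraries. Control library 5 sat among the septic values and the other 3 controls above them. The log2 fold change was −0.72 (SE 0.213, adjusted p = 0.0205), and the call was lost without library 6 (adjusted p = 0.0573) or 8 (adjusted p = 0.0634). Under propofol Tomm40l was at 3.18, 2.43, 2.58 and 2.12 CPM in sepsis and at 3.37, 3.74, 3.12 and 3.53 CPM in controls, overlapping through septic library 9 and control library 15. Its log2 fold change of −0.42 (adjusted p = 0.0631) did not pass there, though it did with library totals, with limma-voom and without library 9 (adjusted p from 0.0322 to 0.0403). Tomm40 itself, the main channel, had log2 fold changes of −0.11 (95% interval −0.32 to 0.11) and −0.045 (−0.24 to 0.15), neither of which passed.

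Tomm70a, the receptor for carrier precursors, moved under propofol. It was at 34.0, 32.5, 31.8 and 34.1 CPM in Propofol-Sepsis and at 35.7, 40.8, 47.1 and 36.8 CPM in Propofol-Control libraries. All 4 controls were higher, library 15 by the widest margin. Tomm70a fell by 0.27 on the log2 scale (SE 0.0872, adjusted p = 0.0295), a call lost without library 11, 12, 14 or 15 (adjusted p from 0.0527 to 0.0762). Under isoflurane its sepsis values of 27.8, 32.3, 29.1 and 25.8 CPM spread around the control values of 28.8, 28.6, 30.7 and 29.9 CPM, with a log2 fold change of −0.023 (95% interval −0.20 to 0.15). Tomm7, a small TOM subunit, had a log2 fold change of 0.20 under isoflurane that missed the threshold (adjusted p = 0.0523) and passed under 4 of 16 alternatives. Tomm34, a cytosolic co-chaperone of precursors, did not pass in either.

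In the presequence pathway, 4 of 10 tested members passed under isoflurane, 1 higher and 3 lower, and 1 of 10 under propofol. These are 40% and 10%, against 50.0% and 42.1% of all genes tested. Grpel2, a GrpE-like exchange factor for mortalin that is paired with Grpel1, was at 38.3, 49.8, 52.9 and 33.3 CPM in Isoflurane-Sepsis and at 30.9, 28.5, 27.1 and 30.1 CPM in Isoflurane-Control libraries. Under propofol it was at 25.7, 24.9, 28.5 and 27.6 CPM in sepsis and at 20.3, 24.4, 23.5 and 19.8 CPM in controls. The septic libraries were above the controls in each anesthetic, and every isoflurane sepsis library was above every propofol library. Its log2 fold change was 0.60 under isoflurane (SE 0.143, adjusted p = 0.00819) and 0.28 under propofol (SE 0.0848, adjusted p = 0.0247). The isoflurane call held in all 16 alternatives, whereas the propofol call was lost without library 11, 12, 13 or 16 (adjusted p from 0.0552 to 0.0673), with library totals (0.0520) and in 1 fit of all 16 libraries (0.0691).

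Grpel1, the other exchange factor, did not follow. It was at 91.4, 98.2, 84.7 and 78.2 CPM in Isoflurane-Sepsis and at 96.7, 100.1, 101 and 96.8 CPM in Isoflurane-Control libraries, a log2 fold change of −0.15 (SE 0.0751, adjusted p = 0.127). In propofol libraries it was at 93.8, 84.8, 98.03 and 103.5 CPM in sepsis and at 91.1, 100.4, 105 and 96.2 CPM in controls, with a log2 fold change of −0.046 (adjusted p = 0.630). In both anesthetics septic and control values overlapped. The pair can be set against each other within a library, where depth and scaling cancel: reads on Grpel2 per read on Grpel1 were 0.419, 0.507, 0.624 and 0.426 in Isoflurane-Sepsis, 0.320, 0.285, 0.268 and 0.310 in Isoflurane-Control, 0.273, 0.293, 0.291 and 0.266 in Propofol-Sepsis, and 0.223, 0.243, 0.223 and 0.206 in Propofol-Control libraries. The ratio was higher in every septic library than in any control of the same anesthetic. This ratio was chosen after the values of both genes were seen and is given without a test.

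**Figure D2:**
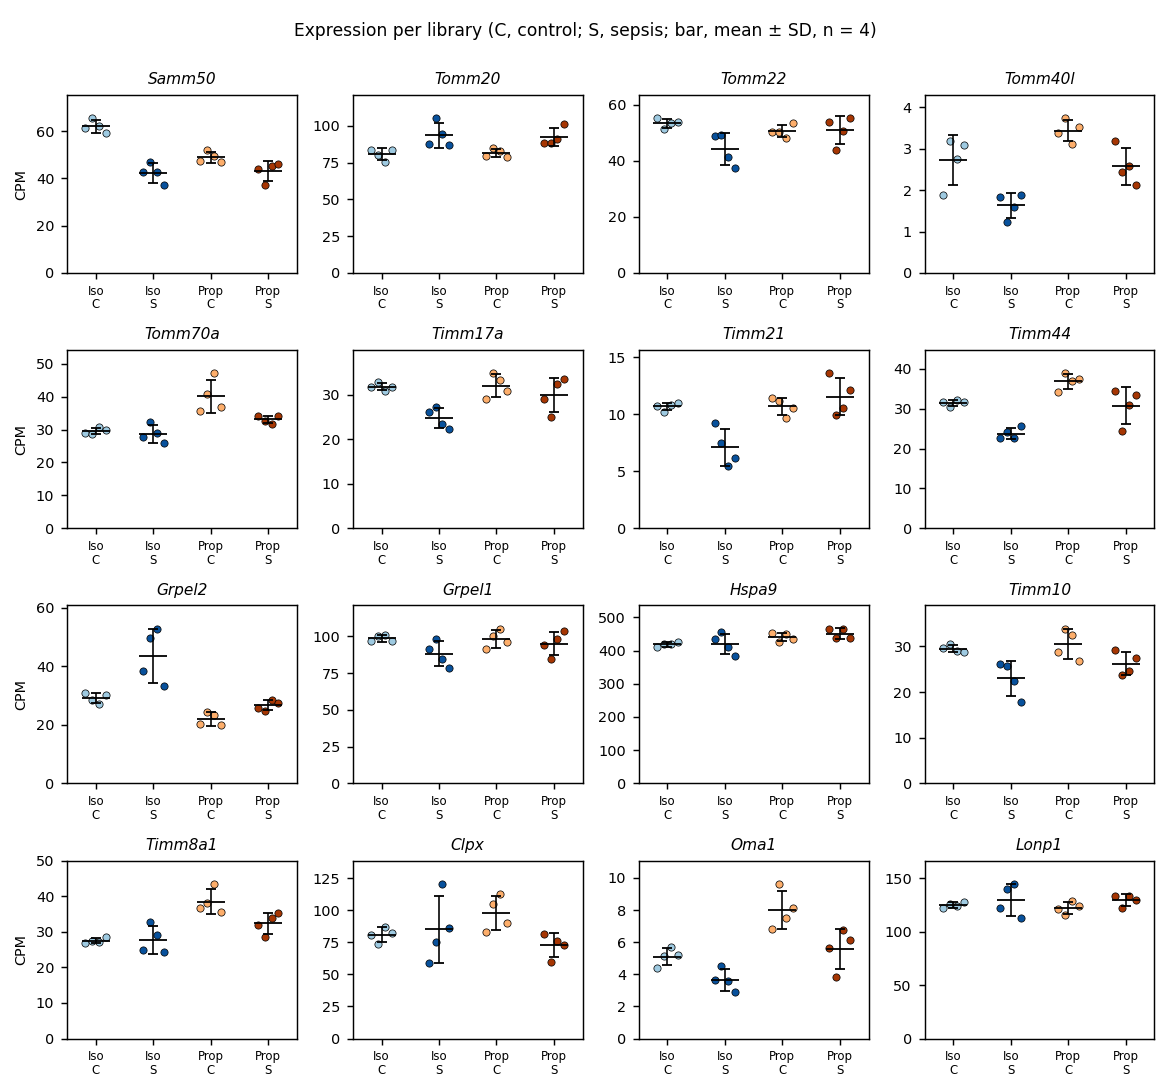
CPM (y axis, from 0) in each of the 16 libraries for 16 members, with the mean and SD of each group of 4; C is control, S is sepsis. Grpel2 is higher in the septic libraries of both anesthetics, Samm50 and Timm44 are lower with no overlap under isoflurane, and Hspa9 and Lonp1 overlap between sepsis and control throughout.

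Subunits of the inner membrane translocase made up the 3 members of this pathway that fell under isoflurane. Timm44, which tethers mortalin to the channel, was at 22.7, 24.1, 22.8 and 25.7 CPM in Isoflurane-Sepsis and at 31.7, 30.4, 32.3 and 31.6 CPM in Isoflurane-Control libraries. Timm17a, a channel subunit, was at 26.1, 27.2, 23.4 and 22.2 CPM in sepsis and at 31.6, 32.8, 31.0 and 31.7 CPM in controls. Timm21, which links the TIM23 complex to TOM and to the respiratory chain, was at 9.22, 7.5, 5.48 and 6.13 CPM in sepsis and at 10.7, 10.2, 10.8 and 11 CPM in controls. None of the 3 genes had a septic library that reached the lowest control, and the controls were tightly grouped. The log2 fold changes were −0.39 for Timm44 (SE 0.0706, adjusted p = 0.00221), −0.35 for Timm17a (SE 0.0753, adjusted p = 0.00517) and −0.58 for Timm21 (SE 0.144, adjusted p = 0.00978). Each of them passed under all 16 alternatives.

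Under propofol none of these 3 passed, although Timm44 came close. It was at 34.3, 24.3, 31.1 and 33.5 CPM in Propofol-Sepsis and at 34.3, 38.9, 37.0 and 37.4 CPM in Propofol-Control libraries, with a log2 fold change of −0.26 (SE 0.0988, adjusted p = 0.0586). Library 10 was the lowest, and Timm44 passed with library totals, after thinning, in 1 fit of all 16 libraries and without library 9 (adjusted p from 0.0242 to 0.0472). Timm17a was at 29.0, 25.01, 32.4 and 33.6 CPM in sepsis and at 29.0, 34.8, 33.4 and 30.9 CPM in controls. Timm21 was at 13.6, 9.96, 10.5 and 12.2 CPM in sepsis and at 11.4, 11.2, 9.68 and 10.5 CPM in controls. Both overlapped widely, with log2 fold changes of −0.092 (95% interval −0.31 to 0.12) for Timm17a and 0.11 (−0.13 to 0.36) for Timm21.

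Hspa9, mortalin itself and the member with the most reads, stayed near the same level in every group. It was at 434, 455, 409 and 385 CPM in Isoflurane-Sepsis, 409, 421, 420.4 and 426 CPM in Isoflurane-Control, 464, 437, 466 and 439 CPM in Propofol-Sepsis, and 452, 425, 449 and 436 CPM in Propofol-Control libraries. The log2 fold change was 0.021 under isoflurane (95% interval −0.13 to 0.17) and 0.038 under propofol (−0.078 to 0.15), so these intervals leave out a change as large as that of Grpel2 under isoflurane. Pmpca and Pmpcb, the subunits of the presequence peptidase, had log2 fold changes between −0.11 and 0.051 in the 2 comparisons, and none passed. Timm23, the channel core, and Pam16, a regulator of the motor, did not pass either, at −0.12 and −0.23 under isoflurane and 0.070 and 0.0019 under propofol.

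Among the small TIM chaperones and TIM22, 1 of 7 tested members passed in each anesthetic, and it was a different one. This is 14.29% in each, against 50.0% of all genes tested under isoflurane and 42.1% under propofol. Timm10, a carrier chaperone of the intermembrane space, was at 26.1, 25.7, 22.4 and 17.9 CPM in Isoflurane-Sepsis and at 29.7, 30.6, 29.0 and 28.9 CPM in Isoflurane-Control libraries. The septic libraries were all lower, library 4 by the most. Timm10 fell by 0.34 on the log2 scale (SE 0.111, adjusted p = 0.0289), a call lost without library 3, 5, 6, 7 or 8 (adjusted p from 0.0529 to 0.0719). Under propofol it was at 29.2, 23.7, 24.6 and 27.5 CPM in sepsis and at 28.7, 33.9, 32.6 and 26.9 CPM in controls, overlapping, with a log2 fold change of −0.22 (adjusted p = 0.0913).

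Timm8a1, the chaperone whose human ortholog is mutated in a deafness-dystonia syndrome, was at 32.1, 28.4, 33.9 and 35.4 CPM in Propofol-Sepsis and at 36.7, 38.1, 43.5 and 35.7 CPM in Propofol-Control libraries. There was no overlap, by a margin of less than 1 CPM between septic library 12 and control library 16. Timm8a1 fell by 0.24 on the log2 scale (SE 0.0822, adjusted p = 0.0379), and the call was lost without library 9, 10, 11, 14 or 15 (adjusted p from 0.0630 to 0.0977), without the filter on low counts (0.0657) and after thinning (0.0548). Under isoflurane the sepsis values of 24.8, 32.8, 29.1 and 24.3 CPM lay on both sides of the control values of 26.98, 27.4, 27.2 and 28.7 CPM, and the log2 fold change was 0.025 (95% interval −0.20 to 0.25).

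Timm13, the partner of the Timm8 proteins, was at 43.1, 45.1, 42.9 and 35.4 CPM in Isoflurane-Sepsis and at 43.8, 43.4, 38.2 and 47.2 CPM in Isoflurane-Control libraries. The propofol values were 46.4, 44.6, 48.8 and 51.3 CPM in sepsis and 45.7, 55.0, 48.9 and 51.2 CPM in controls. Its groups overlapped in both, with log2 fold changes of −0.037 (95% interval −0.24 to 0.17) and −0.068 (−0.23 to 0.093). The remaining members of this group, Timm8b, Timm9, Timm10b and Timm22, had log2 fold changes from −0.24 to −0.11 under isoflurane and from −0.13 to 0.097 under propofol. None of these 4 passed, and Timm22, the carrier channel, was the nearest under isoflurane (−0.24, adjusted p = 0.0812).

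Neither member of the disulfide relay passed. Chchd4, the oxidoreductase that traps incoming proteins, was at 9.12, 12.6, 8.48 and 5.54 CPM in Isoflurane-Sepsis, 7.72, 7.68, 5.88 and 6.41 CPM in Isoflurane-Control, 10.2, 9.10, 11.1 and 9.52 CPM in Propofol-Sepsis, and 7.98, 7.82, 9.64 and 7.34 CPM in Propofol-Control libraries. Under isoflurane, septic library 4 was the lowest of all 8 and the other 3 were above every control, and under propofol control library 15 sat among the septic values. The log2 fold changes of Chchd4 were 0.38 (SE 0.216, adjusted p = 0.17) and 0.28 (SE 0.105, adjusted p = 0.0539). It passed under isoflurane without library 4 (0.55, adjusted p = 0.0223), and under propofol without library 10 (0.31, adjusted p = 0.0451) or 15 (0.37, adjusted p = 0.0207).

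Gfer, which reoxidizes Chchd4 and is also known as augmenter of liver regeneration, was at 10.7, 15.1, 17.4 and 10.3 CPM in Isoflurane-Sepsis and at 12.01, 13.5, 11.5 and 14.6 CPM in Isoflurane-Control libraries. Under propofol it was at 16.4, 10.2, 15.0 and 15.0 CPM in sepsis and at 16.8, 14.5, 15.9 and 16.6 CPM in controls. The septic libraries were more spread than the controls in both anesthetics. The log2 fold change was 0.064 (95% interval −0.34 to 0.46) under isoflurane and −0.17 (−0.46 to 0.11) under propofol.

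Of the proteases, 1 of 5 tested passed under isoflurane and 2 of 5 under propofol, all lower. These are 20% and 40%, against 50.0% and 42.1% of all genes tested. Oma1, the stress-activated inner membrane protease that cleaves Opa1, was at 3.67, 4.53, 3.57 and 2.89 CPM in Isoflurane-Sepsis and at 4.38, 5.12, 5.70 and 5.19 CPM in Isoflurane-Control libraries. In propofol libraries it was at 5.62, 3.81, 6.73 and 6.11 CPM in sepsis and at 6.81, 9.63, 7.48 and 8.12 CPM in controls. Septic library 2 rose above control library 5 under isoflurane, while under propofol no septic library reached the lowest control. Oma1 fell by 0.46 on the log2 scale under isoflurane (SE 0.149, adjusted p = 0.0281) and by 0.52 under propofol (SE 0.175, adjusted p = 0.0354). The isoflurane call was lost without library 3, 6, 7 or 8 (adjusted p from 0.0536 to 0.0773) and after thinning (0.0516), and the propofol call without library 9, 12, 14, 15 or 16 (adjusted p from 0.0518 to 0.106).

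Clpx, the unfoldase that feeds the matrix protease ClpP, was at 81.8, 59.8, 75.9 and 72.7 CPM in Propofol-Sepsis and at 83.3, 105, 113 and 90.3 CPM in Propofol-Control libraries. All septic libraries were lower, library 9 only just. Clpx fell by 0.43 on the log2 scale (SE 0.114, adjusted p = 0.0131) and lost the call only in 1 fit of all 16 libraries (adjusted p = 0.0549) among its 16 alternatives. Under isoflurane it was at 58.6, 75.1, 120.5 and 85.8 CPM in sepsis, from below to above the control values of 80.7, 73.4, 87.3 and 82.3 CPM. The isoflurane log2 fold change was 0.093, with a 95% interval of −0.35 to 0.54.

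Lonp1, the main matrix protease for oxidized proteins, was at 122, 139.8, 145 and 113 CPM in Isoflurane-Sepsis and at 122, 126, 124 and 128 CPM in Isoflurane-Control libraries. With propofol it was at 134, 122, 133 and 129.5 CPM in sepsis and at 121, 116, 129 and 124 CPM in controls. Septic and control values overlapped in both, with log2 fold changes of 0.071 (95% interval −0.13 to 0.27) and 0.087 (−0.037 to 0.21). Afg3l2 and Spg7, the subunits of the matrix-facing AAA protease, had log2 fold changes of 0.12 and −0.17 under isoflurane and of −0.20 and −0.095 under propofol. Neither passed, and Spg7 under isoflurane was the nearest (adjusted p = 0.0682), passing with library totals, after thinning and in 1 fit of all 16 libraries.

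Counting overlap in CPM alone gave a like picture. Septic and control libraries did not overlap for 9 of 32 members under isoflurane, 2 higher and 7 lower, where 48.8% of all genes tested were without overlap (23.4% higher and 25.4% lower). Under propofol this held for 7 members, 2 higher and 5 lower, against 41.6% of all genes (20.1% higher and 21.4% lower).

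The septic libraries of a group did not move together. Relative to the mean of the controls of the same anesthetic, on a log2(CPM + 0.5) scale, the median member stood at −0.073, 0.012, −0.20 and −0.28 in Isoflurane-Sepsis libraries 1 to 4, and at −0.026, −0.24, 0.0017 and 0.022 in Propofol-Sepsis libraries 9 to 12. In library 4, 25 of 32 members were below their control mean, and in library 10, 29 of 32 were. Control libraries stayed between −0.055 and 0.036, and the median of all genes stayed between −0.050 and 0.015 in every library. Without library 4 the median log2 fold change of the members under isoflurane was −0.041 and 10 members passed, and without library 10 the median under propofol was −0.015 and 6 passed. The propofol median also moved to −0.039 without control library 14.

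**Figure D3:**
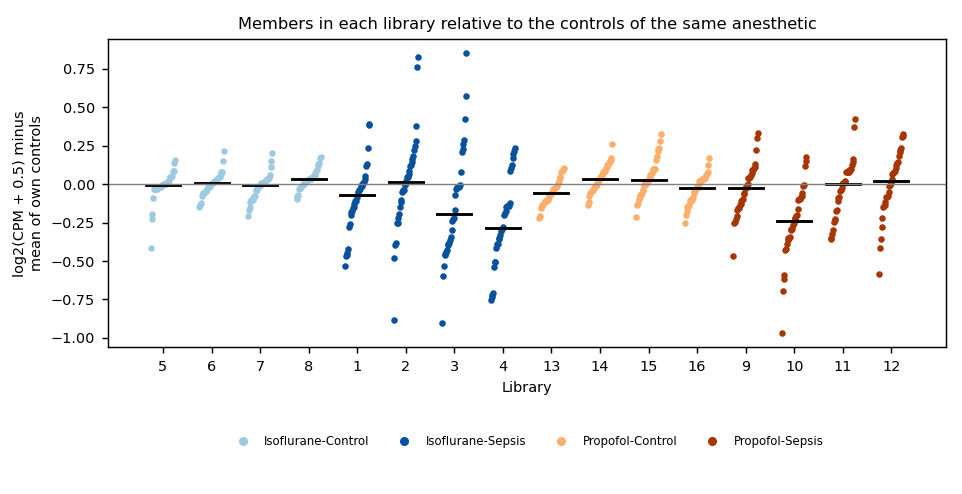
Each point is 1 of 32 members in 1 library; the y axis is its log2(CPM + 0.5) minus the mean of the control libraries of the same anesthetic, and bars are medians. The bars of septic libraries 3, 4 and 10 lie lowest, at −0.20, −0.28 and −0.24, while the bars of the control libraries lie between −0.055 and 0.036.

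Tomm20, Grpel2 and Oma1 were the 3 members that passed in both anesthetics, or 9.375% of members, against 3024 of the 10182 genes tested in both (29.7%). They are 30% of the members called under isoflurane and 50% of those called under propofol. All 3 had the same sign in both anesthetics. A further 7 passed under isoflurane alone, 3 under propofol alone and 19 in neither. The 2 comparisons share no libraries, and 21 of 32 members had the same sign in both, or 65.6%, against 77.8% of those genes. Across the 32 members the log2 fold changes had a Pearson correlation of 0.506, and across all genes of 0.762, which describes these libraries only since genes are not independent replicates.

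Passing in 1 anesthetic and not in the other does not show that the responses differ, so the difference was tested itself, in 1 fit of all 16 libraries. None of the 32 members passed by edgeR, where 2.72% of 10621 genes did (1.66% higher and 1.06% lower), and 6 had an unadjusted p below 0.05. The nearest were Timm21 and Samm50, whose sepsis responses on the log2 scale differed, isoflurane minus propofol, by −0.70 (SE 0.188, adjusted p = 0.0584) and −0.36 (SE 0.104, adjusted p = 0.0674). DESeq2 called both, with adjusted p of 0.0136 for Timm21 and 0.0330 for Samm50. Timm21 also passed after thinning (0.0447). Leaving out Isoflurane-Sepsis library 1 gave 3 calls, Timm21 (−0.86, adjusted p = 0.00570), Samm50 (−0.37, adjusted p = 0.0392) and Clpx (0.65, adjusted p = 0.0391), and leaving out Propofol-Sepsis library 10 gave Timm21 (adjusted p = 0.0469) and Samm50 (adjusted p = 0.0400). For Grpel2 the difference of 0.31 had a 95% interval of −0.049 to 0.66, and for Hspa9 the difference of −0.025 had an interval of −0.19 to 0.14.

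The 2 anesthetics were also set side by side within control and within septic rats. These comparisons share their libraries with the ones above. The deposited files of the 2 anesthetics also carry different run names, and whether these were separate sequencing runs is not stated. The anesthetic, the induction drug and any difference between runs therefore cannot be told apart. In control rats 14 of 32 members passed, 3 higher and 11 lower under isoflurane, or 43.75% against 43.3% of 10314 genes (21.6% higher and 21.7% lower). In septic rats 5 passed, 1 higher and 4 lower, or 15.62% against 19.3% of 10272 genes (10.6% higher and 8.66% lower). The share called in either direction was thus close to the background in both. By direction, in controls the 11 lower of 32 exceeded the share of all genes called lower (21.7%). The 3 higher fell short of the share called higher (21.6%). In septic rats the 4 lower were somewhat above their share (8.66%) and the 1 higher below its share (10.6%). With library totals, which shifted the median of all genes to −0.15 in controls and −0.16 in septic rats, the calls were 2 higher and 17 lower and 1 higher and 14 lower.

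Grpel2 was higher under isoflurane in both states, by 0.41 on the log2 scale in controls (SE 0.0764, adjusted p = 0.00160) and by 0.71 in septic rats (SE 0.139, adjusted p = 0.0159). The second of these was lost without library 9, 11 or 12 (adjusted p from 0.0513 to 0.0595). Samm50 was higher under isoflurane in controls (0.35, SE 0.0557, adjusted p = 0.000698), where its libraries lay at 59.0 to 65.4 CPM against 47.0 to 51.8 CPM, and the septic groups overlapped (−0.020, 95% interval −0.23 to 0.19). Timm23 was higher in controls (0.17, adjusted p = 0.0106), a call that library totals removed (0.030, adjusted p = 0.644).

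Of the 11 members lower under isoflurane in controls, 5 were small TIM and TIM22 genes, out of 7 tested: Timm9 (−0.51, adjusted p = 0.00178), Timm8a1 (−0.48, adjusted p = 0.000273), Timm22 (−0.43, adjusted p = 0.00432), Timm10b (−0.30, adjusted p = 0.0221) and Timm13 (−0.21, adjusted p = 0.0401). That is 71.43% of this small group, against 21.7% of all 10314 genes tested that were lower. The calls of Timm10b and Timm13 were less stable, as given below. Timm9, a carrier chaperone, was at 17.8, 17.8, 16.7 and 19.8 CPM in Isoflurane-Control and at 23.5, 25.5, 31.3 and 23.04 CPM in Propofol-Control libraries. Timm22 was at 12.7, 11.5, 12.9 and 13.2 CPM in Isoflurane-Control and at 15.96, 19.1, 14.5 and 18.5 CPM in Propofol-Control libraries. Neither gene overlapped between the anesthetics, in controls or in septic rats. Oma1 (−0.65, adjusted p = 0.00179), Tomm70a (−0.44, adjusted p = 0.00162), Gfer (−0.29, adjusted p = 0.0201), Clpx (−0.27, adjusted p = 0.0343), Tomm40 (−0.25, adjusted p = 0.00613) and Timm44 (−0.22, adjusted p = 0.00617) were also lower. Timm13, Timm10b, Clpx and Gfer each lost the call when certain single libraries were left out: libraries 5, 6, 7, 14 and 16 for Timm13 (adjusted p from 0.0660 to 0.103), libraries 6, 7, 13 and 14 for Timm10b (0.0525 to 0.0671), libraries 5, 6, 8, 14 and 15 for Clpx (0.0697 to 0.100) and libraries 5 and 7 for Gfer (0.0520 and 0.0597). In 1 fit of all 16 libraries, Tomm40 (0.0686), Timm44 (0.0654), Gfer (0.182), Clpx (0.249), Timm10b (0.0612), Timm13 (0.0657) and Timm23 (0.0765) did not pass at these adjusted p.

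In septic rats the lower members were Timm21 (−0.70, adjusted p = 0.0287), Timm22 (−0.60, adjusted p = 0.0167), Timm9 (−0.51, adjusted p = 0.0217) and Timm44 (−0.36, adjusted p = 0.0493). Timm22 and Timm9 were thus lower under isoflurane in both states. None of the 5 calls in septic rats held without Propofol-Sepsis library 9, 11 or 12 (adjusted p from 0.0513 to 0.134), and the number called ranged from 0 without each of these to 9 without library 10. Timm21 was also lost without library 2, 3 or 4 (adjusted p from 0.0555 to 0.0637) and Timm44 without any 1 of libraries 1 to 4 (adjusted p from 0.0521 to 0.110), and Timm44 kept its call in only 5 of 16 alternatives.

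**Figure D4:**
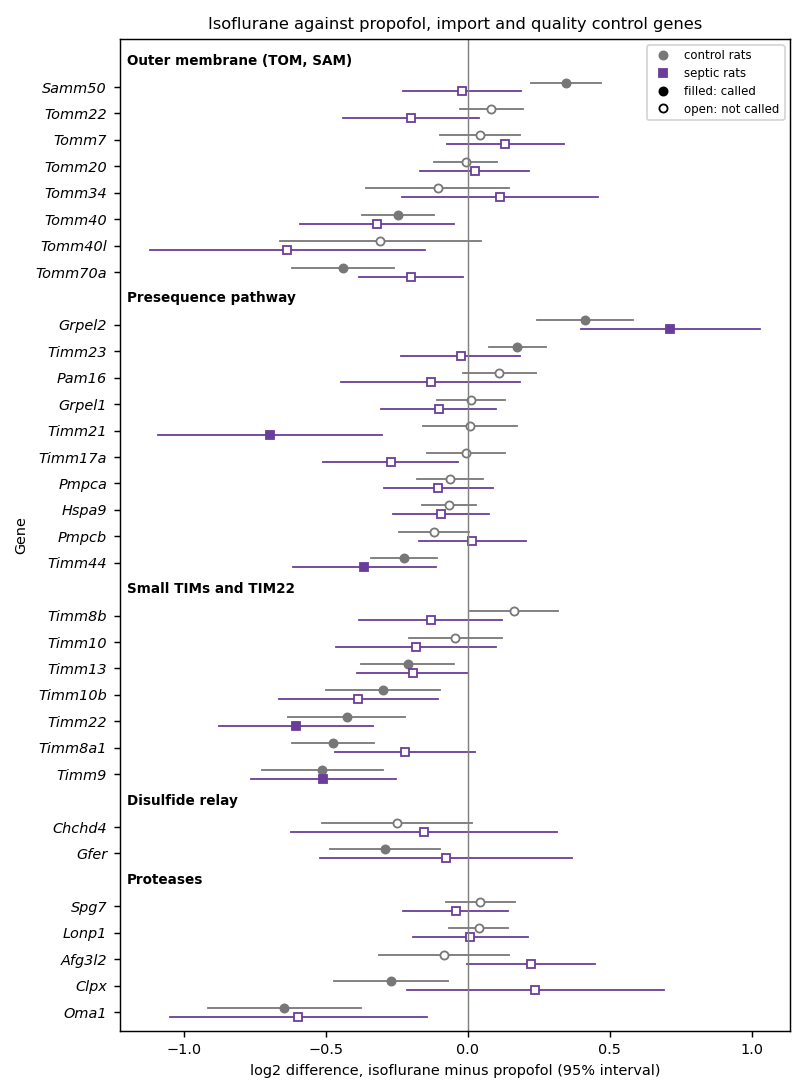
Log2 difference, isoflurane minus propofol (x axis), of each tested member in control rats (circles) and septic rats (squares), with 95% intervals from 4 libraries against 4; filled symbols passed the test. Grpel2 is to the right in both, at 0.41 and 0.71, and Timm22 and Timm9 to the left in both.

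Other genes of mitochondrial import, folding, protease and stress signaling were taken from a list of 38, of which 34 were tested. Under isoflurane 3 were higher and 14 lower (50% of the list, against 50.0% of all genes tested), with a median log2 fold change of −0.21. Under propofol 2 were higher and 9 lower (32.4%, against 42.1% of all genes), with a median of −0.078. The share called in either direction was thus at the background under isoflurane and below it under propofol. By direction, under isoflurane the 14 lower exceeded the share of all genes called lower (24.4%), and the 3 higher fell short of the share called higher (25.7%). Under propofol the 9 lower were somewhat above their share (21.7%) and the 2 higher below theirs (20.4%). The median over all genes tested was 0.0061 under isoflurane and −0.0016 under propofol. Mipep, an intermediate peptidase that trims imported proteins after Pmpca and Pmpcb, fell by 1.28 on the log2 scale under isoflurane (SE 0.219, adjusted p = 0.00167) and by 0.84 under propofol (SE 0.119, adjusted p = 0.000523). Apool fell by 0.52 and 0.32 (adjusted p = 0.000978 and 0.0114). Dnaja3, a J-domain partner of Hspa9, fell by 0.64 and 0.39 (adjusted p = 0.00494 and 0.00427), and Trap1, a matrix chaperone, by 0.47 and 0.40 (adjusted p = 0.0107 and 0.00510). Not every called gene of the list is named, and under isoflurane some, such as Chchd3 (−0.38, adjusted p = 0.00636), had a smaller adjusted p than Trap1. Htra2, a protease of the intermembrane space, rose by 0.52 and 0.34 (adjusted p = 0.00242 and 0.0130). Hspe1, the co-chaperonin of the matrix folding chamber, was higher under propofol (0.42, adjusted p = 0.0300), and its partner Hspd1 did not pass in either.

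Genes of the mitochondrial stress response were on both sides. Atf5, a transcription factor linked to the mitochondrial unfolded protein response, fell from a mean of 502 ± 37.9 to 277 ± 30.7 CPM under isoflurane (SD, n = 4; log2 fold change −0.84, adjusted p = 0.000198) and from 589.5 ± 57.7 to 369.5 ± 45.9 CPM under propofol (−0.67, adjusted p = 0.000617). Under isoflurane, Atf4, the main effector of the integrated stress response, rose by 0.66 (adjusted p = 0.00127), and its target Ddit3 by 1.43 (adjusted p = 0.00148). Under propofol neither passed, at log2 fold changes of 0.21 for Atf4 (adjusted p = 0.106) and 0.30 for Ddit3 (adjusted p = 0.0636). The Ddit3 response differed between the anesthetics in the test of the difference (1.12, SE 0.274, adjusted p = 0.0445), as did that of the inner membrane protein gene Letm1 (−0.41, SE 0.102, adjusted p = 0.0473), the 2 genes of this list that passed it. Usp30, a deubiquitinase of the outer membrane that opposes mitophagy, fell by 0.55 and 0.53 (adjusted p = 0.00115 and 0.000869), and Pink1, the kinase that starts mitophagy, by 0.57 under isoflurane (adjusted p = 0.00418), with −0.18 under propofol, which did not pass (adjusted p = 0.130).

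Markers of other liver and blood cells moved in the same comparisons. The share of all genes tested that passed was 50.0% under isoflurane (25.7% higher and 24.4% lower) and 42.1% under propofol (20.4% higher and 21.7% lower). Between anesthetics it was 43.3% in controls and 19.3% in septic rats. In the sepsis comparisons the hepatocyte list, at 40% and 30%, was below these shares. The neutrophil and monocyte list, at 87.5% in each, was above them. Of 8 tested genes on the neutrophil and monocyte list, 7 were higher in sepsis in each anesthetic. Liver was measured whole, so which cells made these transcripts was not identified. Mpo, on the same list, had only 1 to 3 reads per group and was not tested. The summed level of this list went from 187–235 to 1415–2375 CPM under isoflurane and from 409–676 to 1242–3395 CPM under propofol, with Ly6c at 0 in all libraries. Lcn2 alone made up most of these sums, with means of 1446 CPM in Isoflurane-Sepsis and 2256 CPM in Propofol-Sepsis. Other markers of the list were far lower and in the other order, such as S100a8 (25.9 and 13.1 CPM) and Cd14 (228 and 87.6 CPM), so the sums mainly follow Lcn2. Summed hepatocyte markers went from 1.43e+05–1.54e+05 to 1.19e+05–1.31e+05 CPM under isoflurane, with 0 higher and 4 lower of 10, and from 1.06e+05–1.18e+05 to 9.78e+04–1.07e+05 CPM under propofol, with 1 higher and 2 lower. Under isoflurane, 5 of 9 Kupffer cell and macrophage markers were higher and 1 lower, 2 of 3 lymphocyte markers were higher, 4 of 6 endothelial markers were lower, 2 of 5 stellate cell markers were higher and 1 lower, and 1 of 2 cholangiocyte markers was higher. Under propofol the same lists had 1 higher and 1 lower, 0 higher and 1 lower, 1 higher and 2 lower, 1 higher and 2 lower, and 0 in either direction. The lower Kupffer cell and macrophage marker was Clec4f in both anesthetics (−0.60 and −0.82, adjusted p = 0.00213 and 0.000387). Between anesthetics in controls, 7 of 10 hepatocyte markers were higher under isoflurane and 1, Hnf4a, was lower (−0.51, adjusted p = 2.14e-05), while 4 of 8 neutrophil and monocyte, 2 of 9 Kupffer cell and macrophage, 1 of 3 lymphocyte, 2 of 6 endothelial and 2 of 5 stellate cell markers were lower and 1 of 2 cholangiocyte markers was higher. Between anesthetics in septic rats, 3 hepatocyte markers were higher and 1 lower, 1 neutrophil and monocyte and 2 Kupffer cell and macrophage markers were higher, 5 of 6 endothelial markers were lower, and none of the lymphocyte, stellate cell and cholangiocyte markers passed. The part of these shifts in the members' values was not tested.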

How the data were processed

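Poly(A)-selected, directional libraries were made from pools of liver from 3 rats each. The authors deposited whole-number read counts per gene for each of the 16 libraries, with no normalization. The submitters' processing notes name STAR and build rn5, while no source used here gives the counting program or annotation. Reads listed outside genes (21.6% to 25.4% of each file's total) and as ambiguous (1.07% to 1.35%) were kept out of library sizes and tests. No pair of libraries matched within sampling noise. Deposited counts were tested with edgeR 4.0.16 in R 4.3.3 (quasi-likelihood test, TMM, filterByExpr at min.count 10 and min.total.count 15, Benjamini-Hochberg over all genes tested, threshold 0.05), separately for each pair of groups of 4 and, for the difference between responses, in 1 fit of all 16 libraries. The study itself used DESeq2, which was run here at version 1.42.0 as an alternative, as was limma-voom (3.58.1). CPM values share 1 TMM scale over the 16 libraries.

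The other alternatives were RLE size factors, library totals alone, leaving the low-count filter out, keeping genes with mean CPM of 1 or more, thinning to the shallowest library, 1 fit of all 16 libraries, and leaving out each library in turn. The tests were first run on simulated data whose planted changes were larger than any change of a member reported here. Recovery of changes as small as those of the members was therefore not tested. Library values are given for every member called in a sepsis comparison, the 2 members with the most reads in each role and the largest change in each role and anesthetic. Roles, the list of 38 other genes and the cell markers were chosen with earlier results of these data known, as were the members. The motifs and the printed upstream sequences were chosen after the values were seen, with RefSeq on GRCr8 used for names and these sequences only. Intervals are at 95%.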

Additional observations from a re-analysis of the deposited data

Results flagged for a closer look

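In 4 of 128 groups of 4 libraries (32 members in 4 groups each), 1 library stood apart from the other 3 by a gap that took up more of the group's range than Dixon's 95% critical value allows. Chance gives about 1 in 20 such groups, so 4 is no more than that rate. Tomm34 was at 6.53 CPM in Propofol-Sepsis library 9, where the others lay at 4.88 to 5.10 CPM. Afg3l2 was at 60.7 CPM in Propofol-Sepsis library 10, below the others at 64.5 to 65.3 CPM, and Timm22 was at 13.7 CPM in the same library, below the others at 16.6 to 17.1 CPM. Timm10b was at 17.4 CPM in Propofol-Control library 16, below the others at 21.9 to 22.4 CPM. None of these 4 passed in the sepsis comparisons as reported. Among the alternatives, Timm22 passed under isoflurane with library totals (adjusted p = 0.0402) and without library 1 (0.0107), and Afg3l2 without library 1 (0.0423). Between anesthetics, 2 comparisons that use a flagged library had calls for these genes. Timm22 passed in septic rats (adjusted p = 0.0167) and Timm10b in controls (adjusted p = 0.0221).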

How the results depend on the processing

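No called result changed direction under any alternative run, and the median difference between the responses ranged from −0.074 to 0.0047 with single libraries left out. The number of members called under isoflurane ranged from 5 to 13 and under propofol from 2 to 6 when single libraries were left out, and was within 1.5 times the reported number under the 8 other alternatives for each. For the difference between the responses it was 2 with DESeq2, 1 after thinning and 0 to 3 with single libraries left out. Between anesthetics in controls it was 7 in 1 fit of all 16 libraries and 11 to 14 with single libraries left out, and the median of the members was −0.22 with library totals and −0.12 (without library 16) to −0.051 with single libraries left out. In septic rats it was 15 with library totals, 10 in 1 fit of all 16 libraries and 0 to 9 with single libraries left out (3 without library 2, 3 or 4). Among the values of named members that had passed, 255 still passed and 25 did not under alternatives that kept all libraries, and 196 still passed and 84 did not with a library left out. Leaving out a library also takes away residual degrees of freedom, and the cause of each lost call was not tested. No paired analysis was possible because the labels number the libraries from 1 to 16 and no number is shared between groups. Counting depth limits the lowest members most: Tomm40l and Oma1 lay between 1.23 and 9.63 CPM, and Yme1l1, Timm17b and Timm8a2 could not be tested.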
